A study of Mus musculus with 8 samples.

Results

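G9a knockdown was compared with control siRNA over 2 days at once, as 4 differences between paired arrays. Murine myoblasts of skeletal muscle were given siRNA targeting G9a (siG9a) or, as controls, a scrambled siRNA, and their total RNA was hybridised to Illumina WG-6 v2.0 arrays at day 0 and day 1. The event from which days were counted is not stated, and neither is whether the myoblasts were primary cells or a line. Each of the 4 groups (control and siG9a at each day) held 2 biological replicates, 8 arrays in all, and all 8 entered the comparison. Each siG9a array was set against the control array of the same day and replicate number, which gave 4 pairs. Of 31443 features measured (21946 named genes, 1 probe each, and unnamed probes), 4718 had a difference of the same sign in all 4 pairs, 2087 higher and 2631 lower in siG9a.

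G9a, the product of Ehmt2, is a lysine methyltransferase that works with its partner GLP (Ehmt1) to place mono- and dimethylation on lysine 9 of histone H3, a mark of silenced genes in euchromatin. In myoblasts it is known as a brake on differentiation: it methylates histones at muscle promoters and also methylates the muscle determination factor MyoD. Myoblasts leave the cell cycle as they differentiate, and then turn on sarcomere, fusion and synapse genes. The series title places the experiment under cell cycle control in muscle cells.

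Values are in log2 units, and the zero of the scale differs from probe to probe. The base was taken as 2, since the files do not state it. They can be compared between arrays but not between probes, and they do not show which genes were silent. A positive difference means higher in siG9a. Differences are means of 4 pairs ± the moderated standard error (SE) of limma, and a feature was called at an adjusted p under 0.05 over all features. The 4 pairs came from only 2 replicate numbers, so the days of a number may share cells or handling. Array medians lay between -0.15 and 0.11, below 0 in all replicate 1 arrays and above 0 in all replicate 2 arrays. The median difference of a pair ranged from -0.063 (day 0 replicate 1) to 0.033 (day 1 replicate 2). None of 12 myoblast markers was called, where 0.814% of all features were. The markers ran from -0.29 (Vcam1, mixed signs) to 0.29, with Chrna1 at 0.27 (higher in all 4 pairs). Myod1, Des and Pax7 differed by 0.10, 0.06 and -0.03.

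The siRNA target was lower in every pair. Ehmt2 stood in the control arrays at 1.23 and 0.59 (day 0, replicates 1 and 2) and at 0.77 and 0.66 (day 1). In the siG9a arrays it stood at -0.82, -0.69, -0.95 and -0.31 in the same order. All siG9a arrays lay below all control arrays, and Ehmt2 fell by 1.50 ± 0.12 (n = 4 pairs, adjusted p = 1.11e-06), a 2.83-fold lower level. The differences were -2.05, -1.28, -1.72 and -0.96, so the fall was larger in replicate 1 than in replicate 2 at both days. A second probe of the same transcript record gave -1.52. A further probe, of another transcript record, gave -0.15, negative in all 4 pairs. Ehmt1, which encodes the partner GLP, differed by -0.08 ± 0.08 (adjusted p = 0.908).

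In the 4 pairs together 256 features were called (0.814% of those tested), of which 120 were higher (0.382%) and 136 lower (0.433%). These shares stand beside every later count of called list members in this fit. With the arrays rescaled to equal distributions by quantile normalization, 20 were called (0.0636%), and the share of higher ones moved from 46.9% to 65%. The count also rests on the pairing and on spread shared between features. None were called when all 8 arrays were fitted with group means, with or without the replicate number as a block (1540 and 148 at an unadjusted p under 0.05). None were called by the 4 differences without moderation either (1951 at an unadjusted p under 0.05). An exact sign-flip permutation test of 4 pairs cannot give a two-sided p under 0.125, so no single gene could have passed one.

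Among the called features 247 had the same sign in all 4 pairs, 114 higher and 133 lower, and 226 of these were named genes. A shared sign was common without a call: 15% of all features had it, 6.64% higher and 8.37% lower, and 4471 of the 4718 were not called. The 9 called features of mixed sign were Acsl6, Ccl9, Ctrb1, Fbxl13, Nmrk2 and Tcap, which were higher on average, and Cxcl12, Rhou and Smim11, which were lower. Most called changes were small. Higher ones ran from 0.34 to 1.79 with a median of 0.54, lower ones from -0.33 to -1.50 with a median of -0.42, and 4 exceeded 1 in size. The called higher features had medians of 0.82 and 0.46 in the day 0 pairs and 0.48 and 0.33 in the day 1 pairs. The called lower ones had -0.55 and -0.34, then -0.47 and -0.33. In both directions the pair of day 0 replicate 1 was the largest, and it held the largest difference of 84 higher and 67 lower features. With each pair left out in turn, 74 features stayed called throughout, 43 higher and 31 lower.

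**Figure D1:**
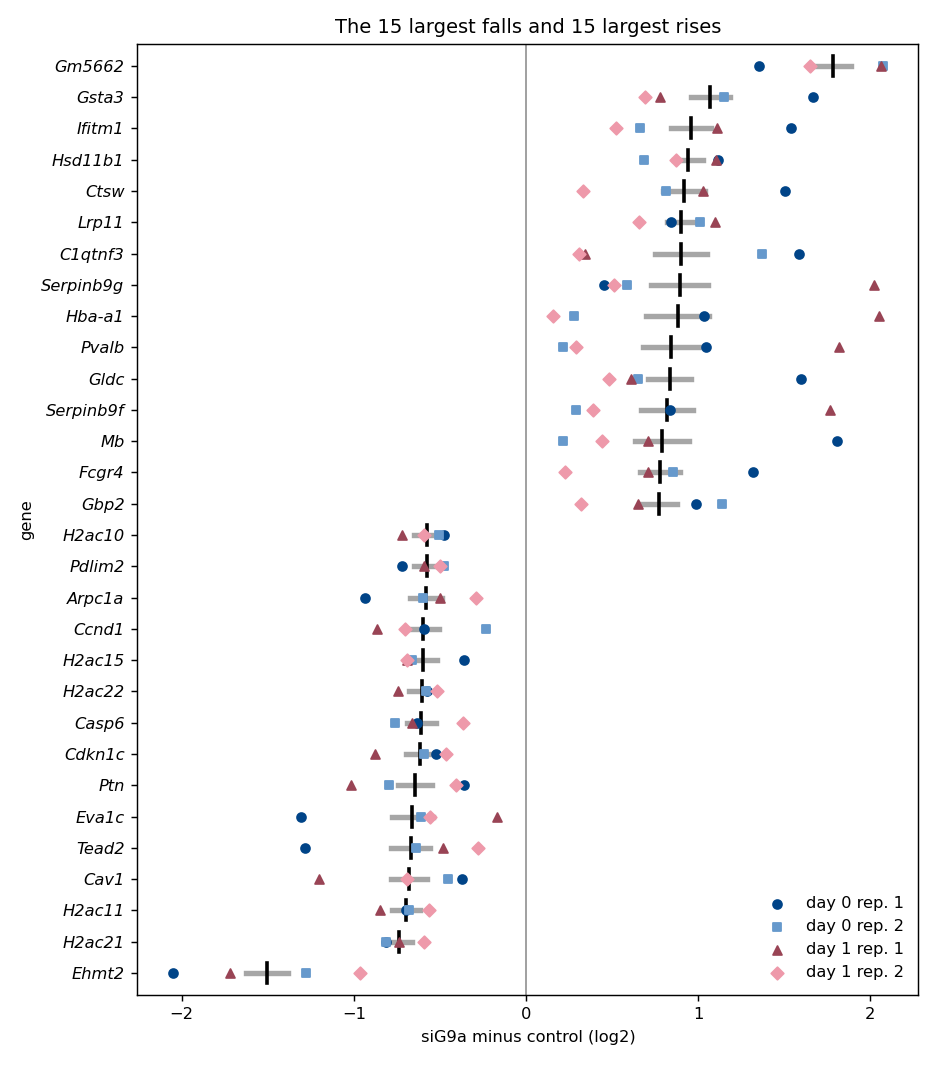
The difference between siG9a and control (log2, x axis) in each of the 4 pairs for the 15 largest rises and 15 largest falls among named genes with the same sign in all pairs; symbols are pairs, black ticks their mean and grey bars ± SE. Ehmt2 has the largest fall at -1.50, and Gm5662 the largest rise at 1.79.

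The largest rise of a named gene belonged to Gm5662, a predicted gene without a role that could be stated here. Its control arrays stood at -1.37, 0.30, -1.43 and -0.33 and its siG9a arrays at -0.02, 2.37, 0.63 and 1.32. It rose by 1.79 ± 0.10 (adjusted p = 4.55e-09), the largest change on the arrays and larger than that of the target. Its second probe gave 0.04 with mixed signs, so only the tested probe showed the change. Another 2 probes without a gene name rose by 1.19 and 0.99.

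Lrp11, a membrane protein of the LDL receptor-related family, had the smallest adjusted p among rises of named genes measured by a single probe. Controls read -0.07, 0.02, -0.54 and -0.47, and siG9a arrays 0.77, 1.03, 0.56 and 0.19, so that the groups did not overlap on any day. The rise was 0.90 ± 0.08 (adjusted p = 6.00e-06), with pairs between 0.66 and 1.10. Hsd11b1, the enzyme that regenerates active glucocorticoid inside cells, read -1.27, -1.45, -0.73 and 1.80 in controls and -0.16, -0.76, 0.38 and 2.67 in siG9a. It rose by 0.94 ± 0.09 (adjusted p = 4.15e-06), and 2 of its 3 other probes rose alike, by 0.96 and 0.72, while the remaining probe gave -0.08. The level at day 1 differed strongly between replicates, yet each pair kept a difference of 0.68 to 1.11. C1qtnf3, a secreted protein of the C1q and tumour necrosis factor-related family, rose by 0.90 ± 0.15 on 1 probe, and its other probes gave 0.78 and 0.83.

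Glutathione S-transferases, which attach glutathione to electrophilic compounds, supplied 3 called rises among 21 measured genes, where 0.382% of all features were called higher. This family was picked after its values were seen. Gsta3 rose by 1.07 ± 0.11 (adjusted p = 4.09e-05), from 0.02, -1.17, -1.06 and 1.20 in controls to 1.68, -0.02, -0.28 and 1.89. All 4 pairs were higher, but a second Gsta3 probe gave -0.06 and was lower in all pairs. Gstk1 rose by 0.55 and Gstm2 by 0.55, the latter not when the pair of day 0 replicate 1 or of day 1 replicate 1 was left out. Gsta3 was the only called member among 30 measured genes of the NRF2 and redox list, whose median was -0.04.

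Plac8, a small cysteine-rich protein of myeloid cells and placenta, rose by 0.71 ± 0.08 (adjusted p = 5.17e-05). It read -0.59, 0.02, -0.02 and 1.03 in controls and -0.02, 0.79, 0.73 and 1.79 in siG9a, and 3 of its pairs lay within 0.75 to 0.77. Ctsw, a cathepsin of cytotoxic lymphocytes, rose by 0.92 ± 0.12 and the antibody receptor gene Fcgr4 by 0.78 ± 0.12. Of genes chosen after their values were seen, 5-lipoxygenase (Alox5), which starts leukotriene synthesis, rose by 0.51. Its activating protein Alox5ap rose by 0.76, and Il1rn, the interleukin-1 receptor antagonist, rose by 0.56, though its 3 other probes gave 0.17, -0.04 and 0.12 with mixed signs. The other probes of Alox5 and Alox5ap were higher in all 4 pairs. Alox5 lost its call without day 0 replicate 2 or without day 1 replicate 1. Of 15 macrophage and leukocyte markers Fcgr4 alone was called, and the other 14 lay between -0.16 (Cd14) and 0.18 (Cd74), with a median over the list of 0.03. Ptprc, Cd68 and Csf1r, which define these cells, differed by 0.05, -0.01 and 0.09. Whether other cell types had a part in these rises was not tested.

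Of 48 interferon-stimulated and antigen-processing genes, which cells turn on upon interferon signalling, 3 were called higher and none lower, with a list median of 0.03. They were Ifitm1 (0.96 ± 0.12), a membrane protein that blocks virus entry, Gbp2 (0.77 ± 0.10), a guanylate-binding GTPase, and Apol9b (0.62 ± 0.09). Over all features 0.382% were called higher. Ifitm1 read 0.65, 1.10, -1.13 and 0.01 in controls and 2.19, 1.77, -0.01 and 0.54 in siG9a. Its other 4 probes gave -0.08 to 0.19 and the other Gbp2 probes 0.08 and 0.06, so neither rise was seen on a further probe. Classical members of the list were not called: Isg15 stood at -0.07, Mx1 at -0.18, Ifit1 at 0.19 and Stat2 at 0.00.

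A list of proliferins, placental hormones of the prolactin family that proliferating cells also secrete, and serpins, inhibitors of serine proteases from the b9, b6 and b1 genes and Serping1, had 15 measured members. Of these 6 were called higher and none lower, with a median of 0.16. Over all features 0.382% were called higher. Prl2c4 read 4.30, 3.73, -0.27 and -0.30 in controls and 4.37, 4.54, 0.83 and 0.21 in siG9a. Its rise of 0.62 ± 0.11 (adjusted p = 0.00992) stood on a control level that dropped by 4.30 between the days. Prl2c3 rose by 0.59 and Prl2c2 by 0.54. These genes are near-identical copies, and their probes may not tell them apart. Serpinb9g rose by 0.89 ± 0.17 and Serpinb9f by 0.82 ± 0.15, each with 1 large pair, 2.02 and 1.77 at day 1 replicate 1. Serping1, the C1 inhibitor, rose by 0.42. Without day 1 replicate 1 the list had 2 called members, and without day 0 replicate 2 it had 3. Of all features 108 and 238 were called in these fits. The mean over a gene's probes left 2 and quantile normalization none.

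**Figure D2:**
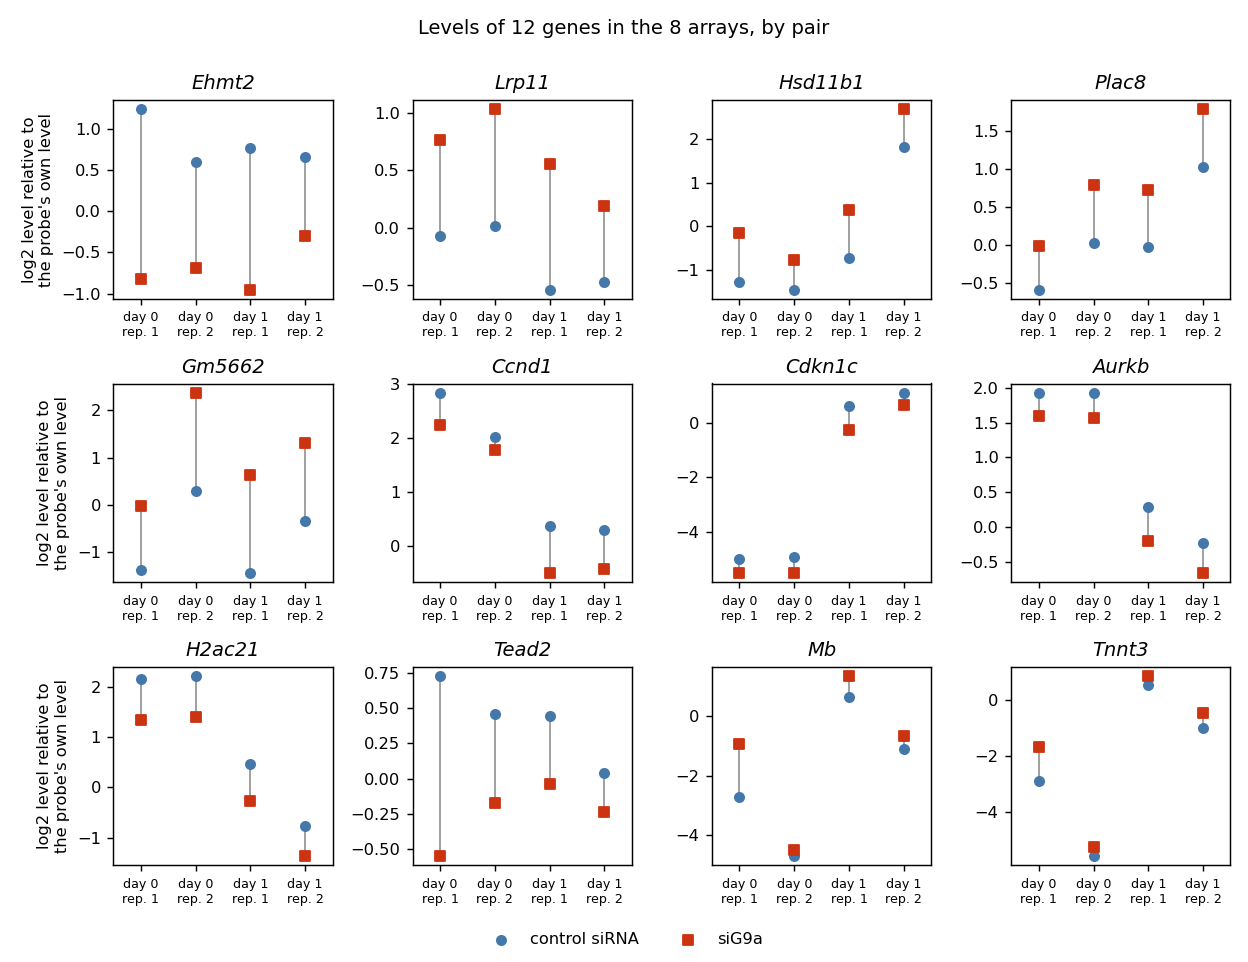
Levels of 12 genes (log2 relative to each probe's own level, y axis) in control (blue circles) and siG9a (red squares) arrays, with a grey line joining the arrays of a pair. Ehmt2 fell in all 4 pairs, and Lrp11, Hsd11b1, Plac8 and Gm5662 rose in all 4, whereas the differences in Mb and Tnnt3 were small beside their spread between days and replicates.

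Sarcomere and contraction genes, the structural program of the muscle fibre, were higher in most cases: 55 of 63 measured members had a positive mean, 8 were called higher and none lower. Over all 31443 features 15153 had a positive mean and 0.382% were called higher. The median of the list was 0.27, against 0.00 over all features. Called members were the oxygen store myoglobin (Mb, 0.79 ± 0.16), the calcium buffer parvalbumin (Pvalb, 0.84 ± 0.16) and fast troponin T (Tnnt3, 0.61 ± 0.11). The other called members were the Z-disc proteins Tcap (0.60), Myoz2 (0.55), Pdlim3 (0.52), Actn2 (0.51) and Actn3 (0.50). Mb read -2.73, -4.72, 0.65 and -1.10 in controls and -0.92, -4.51, 1.36 and -0.65 in siG9a. Tnnt3 read -2.89, -5.55, 0.52 and -1.01 in controls and -1.66, -5.21, 0.85 and -0.45 in siG9a. Arrays of the groups overlapped at both days in both genes, and replicates of a group lay further apart than siG9a and control of a pair. The median of the list was 0.77 in the pair of day 0 replicate 1 but 0.09, 0.06 and 0.20 in the others. Without that pair 3 members were called, where 168 of all features were (0.534%), and the median was 0.10. Leaving out replicate 1 gave 2 called members, where 90 of all features were called. Leaving out replicate 2 gave 23, where 331 of all features were. Median centring left 2 called members, the mean over a gene's probes 1 and quantile normalization none. The second Myoz2 probe gave 0.11 with mixed signs. The pairs of Pvalb gave 1.05, 0.22, 1.82 and 0.29, largest at day 1 replicate 1, and its groups overlapped at both days. Pvalb did not stay called throughout when pairs were left out in turn, nor after median centring.

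The regulators upstream of this program were not called. None of 13 myogenic regulatory and MEF2 factors passed the test, where 0.814% of all features did, and their median was -0.03. Myog, which starts terminal differentiation, gave 0.34 ± 0.12 (adjusted p = 0.339) with 1.06 in the pair of day 0 replicate 1 and 0.25, 0.11 and -0.05 in the rest. Myh3, the embryonic myosin heavy chain, gave 0.32 ± 0.12 (adjusted p = 0.387), with the same pair at 0.997. Of 30 fusion, adhesion and neuromuscular junction genes, 2 were called higher and none lower. These were Chrng (0.54 ± 0.11), the fetal subunit of the acetylcholine receptor, and Sgca (0.54 ± 0.12), a sarcoglycan of the dystrophin complex, and neither stayed called without day 0 replicate 1. In the reported fit 0.382% of all features were called higher. No member of the fusion list was called after median centring or quantile normalization, which called 0.499% and 0.0636% of all features. Fst, the secreted follistatin that binds myostatin and activin, rose by 0.57 ± 0.09 (adjusted p = 0.0046). Among 31 genes of the TGF-beta, BMP and activin system, Fst and Smad5, a signal carrier of BMP receptors, were the called members, and Smad5 fell by 0.49, though its second probe gave -0.17 with mixed signs. Twist2, a bHLH repressor of myogenic transcription, fell by 0.43 ± 0.09 and was the called member among 22 such repressors, though not without replicate 1 of day 0 or of day 1.

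Genes of DNA replication and the G1/S transition were mostly lower in siG9a. Of 50 measured, 46 had a negative mean, 34 were lower in all 4 pairs and none higher in all 4, and 10 were called, all lower. Over all 31443 features 16290 had a negative mean, 8.37% were lower in all 4 pairs and 0.433% were called lower. The median was -0.24, and -0.33, -0.15, -0.23 and -0.24 in the single pairs. Uhrf1, which links replication to maintenance of DNA methylation and reads methylated H3K9, fell by 0.50 ± 0.08 (adjusted p = 0.0033), though its second probe gave -0.04. It read 1.85, 2.24, 0.54 and -0.46 in controls and 1.36, 1.92, -0.00 and -1.09 in siG9a. Mcm5 of the replicative helicase fell by 0.43, and Gins1 and Gins2, which join that helicase, by 0.39 each. The histone chaperone subunits Chaf1b and Chaf1a fell by 0.43 and 0.34. The kinase Cdc7 and its activator Dbf4, which fire origins, fell by 0.34 and 0.37. The polymerase subunit Pold1 fell by 0.36 and thymidine kinase Tk1 by 0.38. The second Cdc7 probe gave 0.02 and the 3 other Tk1 probes -0.04, 0.08 and -0.19, all of mixed sign.

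Mitotic genes showed the same direction with a weaker second pair. Of 50 genes of G2/M and mitosis, 47 had a negative mean, 21 were lower in all pairs and none higher, and 8 were called, all lower. The shares over all features are those given for the G1/S genes. The list median was -0.24, from -0.22, -0.02, -0.31 and -0.29 in the pairs, so the pair of day 0 replicate 2 carried almost none of it. Plk1, the kinase that drives mitotic entry, fell by 0.42, and Aurkb, the kinase of the chromosomal passenger complex, by 0.41 ± 0.08 (adjusted p = 0.0123). Aurkb read 1.93, 1.93, 0.29 and -0.24 in controls and 1.59, 1.57, -0.21 and -0.66 in siG9a. Its complex partners Birc5 and Cdca8 fell by 0.39 and 0.36, and the spindle genes Nusap1, Tpx2, Kif22 and Mad2l1 by 0.40, 0.36, 0.35 and 0.37. The 3 other Nusap1 probes gave -0.14, 0.02 and -0.03, whereas the other probes of Birc5, Cdca8 and Mad2l1 were lower in all 4 pairs. The calls were close to the threshold: without day 1 replicate 1, 1 gene of G1/S (Uhrf1) and none of G2/M remained, and without day 1 replicate 2, 4 and none. Of all features 108 and 226 were called in these fits. Median centring, which called 0.499% of all features, left 7 and 2, and quantile normalization none.

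Upstream of replication, cyclin D1 was the called member among 19 D cyclins, CDK4/6, pocket proteins and E2F factors. Ccnd1, which couples growth signals to CDK4 and CDK6, read 2.84, 2.01, 0.37 and 0.29 in controls and 2.24, 1.78, -0.49 and -0.41 in siG9a. It fell by 0.60 ± 0.09 (adjusted p = 0.00248), to a 1.51-fold lower level, and its other probes gave -0.44 (mixed signs) and -0.49. Rb1, the retinoblastoma protein that restrains E2F, gave 0.27 ± 0.10 (adjusted p = 0.397), and E2f1 gave -0.24 ± 0.08 (adjusted p = 0.293). Of 8 CDK inhibitors, Cdkn1c was the called member, and it fell. Cdkn1c, an imprinted inhibitor that accompanies cell cycle exit in muscle, read -4.97, -4.89, 0.61 and 1.09 in controls and -5.49, -5.48, -0.27 and 0.63 in siG9a. The fall of 0.61 ± 0.08 (adjusted p = 0.000763) was seen at its low day 0 and high day 1 levels alike, with pairs from -0.46 to -0.88. Cdkn1a, the p53-induced inhibitor p21, gave 0.21 ± 0.09 (adjusted p = 0.516), with 0.48 and 0.39 at day 0 and -0.04 and 0.03 at day 1. Plk2, a polo-like kinase that p53 induces, fell by 0.54 ± 0.09, the called member among 26 p53 genes.

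**Figure D3:**
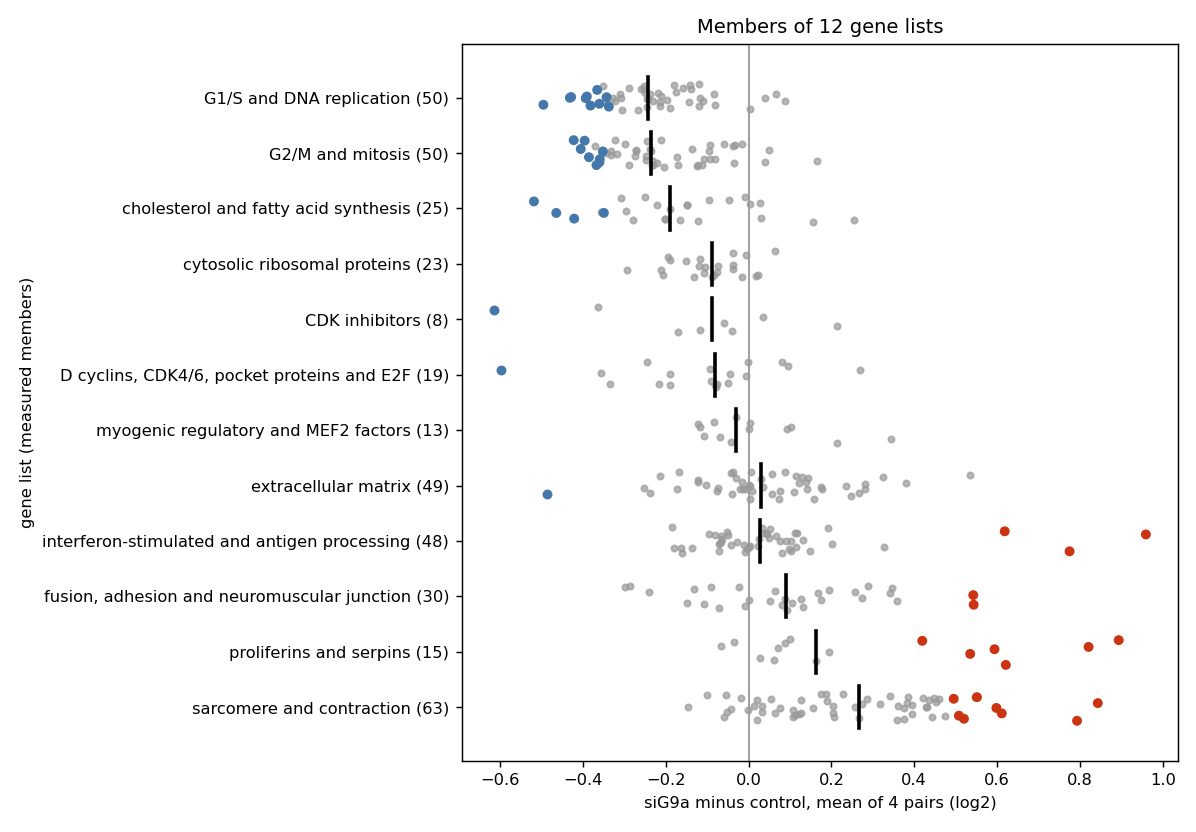
Mean difference of 4 pairs (log2, x axis) of each measured member of 12 gene lists, with list sizes in parentheses; red and blue points are called higher and lower, grey points were not called, and black ticks mark list medians. The medians of G1/S and of G2/M genes lie at -0.24 and that of sarcomere genes at 0.27.

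A group of histone H2A genes fell. Core histone genes lie in clusters on chromosomes 13 and 3 and are transcribed in S phase. Their families were picked after the values were seen. Of 16 measured H2ac genes, 10 were called lower and none higher, with a median of -0.47. Over all features 0.433% were called lower. H2ac21 read 2.16, 2.21, 0.47 and -0.78 in controls and 1.35, 1.40, -0.27 and -1.37 in siG9a. It fell by 0.74 ± 0.08 (adjusted p = 4.09e-05), with pairs between -0.59 and -0.81. H2ac11 fell by 0.70, H2ac22 and H2ac15 by 0.60 each, H2ac10 by 0.57 and H2ac12 by 0.56, and 8 of the 10 stayed called with each pair left out. After quantile normalization only H2ac21 and H2ac11 stayed called, and after median centring all but H2ac24 did. H2ac7, H2ac13, H2ac20 and H2ac24 fell by 0.55, 0.49, 0.45 and 0.42. The second H2ac20 probe went the other way, 0.32 without a call, and was higher in all 4 pairs, while the second probes of H2ac7, H2ac10, H2ac12 and H2ac13 were lower in all 4. H2ac18 and H2ac19 went the other way, 0.48 each without a call, with 1.54 in the pair of day 0 replicate 1.

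None of 13 H2bc, 9 H3c, 12 H4c and 9 H1f genes was called, and their medians were 0.09, -0.06, -0.00 and -0.02. H2ac transcripts are nearly identical to each other, so the 10 falls may be read by probes that share targets and are not 10 separate observations. Whether the difference from the other histone families exceeds that between probe designs was not tested.

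**Figure D4:**
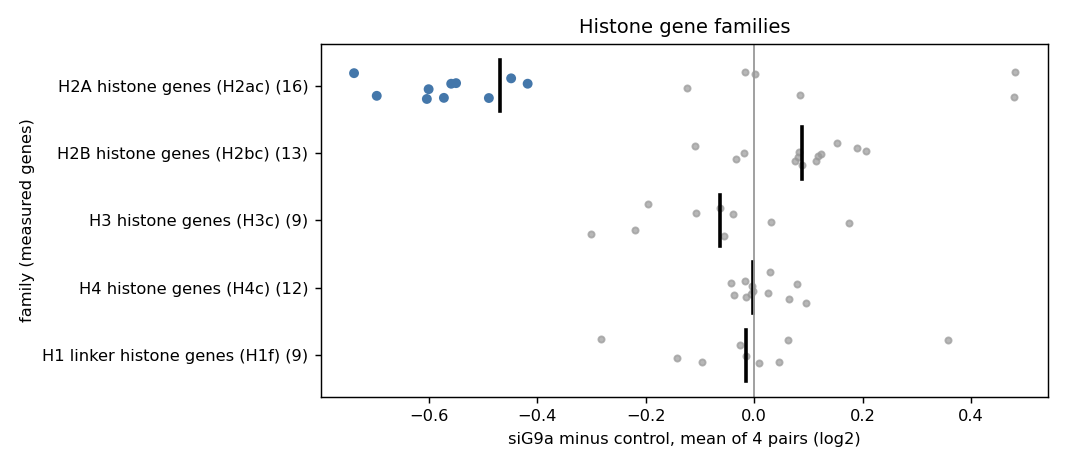
Mean difference of 4 pairs (log2, x axis) of every measured gene of 5 histone families, with family sizes in parentheses; blue points were called lower, grey points were not called and black ticks are family medians. Only H2ac genes hold called members, 10 of 16, at a median of -0.47.

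The sequences upstream of the H2ac genes that fell most are given here to show the repeated CCAAT box that they share. They are the 250 bases before the start, 5′ to 3′ on the gene's own strand, from RefSeq on GRCm38.p6. Capitals mark CCAAT or its reverse complement ATTGG.
H2ac21, chr3:96219635-96219884, plus strand: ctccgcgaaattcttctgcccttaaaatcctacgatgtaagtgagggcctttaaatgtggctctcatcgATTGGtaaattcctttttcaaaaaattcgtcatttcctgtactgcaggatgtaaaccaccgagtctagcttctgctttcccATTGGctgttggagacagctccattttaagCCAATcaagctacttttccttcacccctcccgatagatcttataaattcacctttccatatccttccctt
H2ac11, chr13:22042950-22043199, minus strand: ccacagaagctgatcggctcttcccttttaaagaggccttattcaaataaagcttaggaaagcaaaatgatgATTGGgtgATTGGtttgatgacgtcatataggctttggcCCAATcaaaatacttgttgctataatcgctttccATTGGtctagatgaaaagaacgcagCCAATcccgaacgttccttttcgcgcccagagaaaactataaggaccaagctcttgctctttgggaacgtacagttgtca
All 10 called H2ac promoters held this motif, and so did all 6 H2ac promoters that were not called, so it did not separate them. It stood in 46.4% of 97 called lower genes with a promoter, 38.6% of 83 called higher genes and 39.2% of 15469 measured genes. Among all measured G1/S and G2/M genes the share was 63.4%, and among the called ones it was 42.9% (6 of 14).

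The E-box CAGCTG, a palindrome that reads the same on both strands and that MyoD and myogenin can bind, was searched in the same way. It stood upstream of 31.3% of called higher genes (26 of 83), 13.4% of called lower genes and 14.2% of measured genes. Of all promoters of measured genes 12.5% held it. The share was 28.9% among called higher genes outside the sarcomere and fusion lists, and 33.3% among all measured members of those lists. Of 7 called sarcomere and fusion genes with a promoter, 4 held it, and their sequences follow with each CAGCTG in capitals, in the same window and build. A match shows only that the letters occur there.
Chrng, chr1:87205561-87205810, plus strand: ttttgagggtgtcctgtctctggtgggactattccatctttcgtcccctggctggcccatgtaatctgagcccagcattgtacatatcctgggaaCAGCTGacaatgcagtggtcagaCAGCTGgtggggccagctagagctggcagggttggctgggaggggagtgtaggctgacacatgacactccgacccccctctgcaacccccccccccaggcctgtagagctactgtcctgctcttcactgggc
Mb, chr15:77022788-77023037, minus strand: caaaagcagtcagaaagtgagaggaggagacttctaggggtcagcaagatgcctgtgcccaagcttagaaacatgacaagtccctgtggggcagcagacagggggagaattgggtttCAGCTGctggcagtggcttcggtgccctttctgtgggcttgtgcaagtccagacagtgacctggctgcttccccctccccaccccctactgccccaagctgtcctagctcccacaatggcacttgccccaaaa
Myoz2, chr3:123034988-123035237, minus strand: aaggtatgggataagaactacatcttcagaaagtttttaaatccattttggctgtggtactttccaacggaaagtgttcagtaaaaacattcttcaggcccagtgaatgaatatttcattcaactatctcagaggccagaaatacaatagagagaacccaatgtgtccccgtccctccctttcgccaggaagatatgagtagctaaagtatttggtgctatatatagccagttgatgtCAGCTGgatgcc
Pdlim3, chr8:45885237-45885486, plus strand: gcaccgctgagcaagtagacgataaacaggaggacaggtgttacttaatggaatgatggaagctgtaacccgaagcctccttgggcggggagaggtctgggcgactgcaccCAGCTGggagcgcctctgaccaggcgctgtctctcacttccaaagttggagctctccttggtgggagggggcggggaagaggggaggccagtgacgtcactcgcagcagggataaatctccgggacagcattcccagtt
In Chrng the motif occurred at -155 and -132 from the start, in Pdlim3 at -139, in Mb at -133 and in Myoz2 at -12. The palindrome CACGTG stood in 8.43% of called higher, 5.15% of called lower and 8.11% of measured genes. The letters TTTGAA, searched on both strands, stood in 13.3%, 16.5% and 15.8% of the same sets. The E2F motif TTTGGCGC occurred in at most 1 gene of either called set on either strand, and so did the E2F motif TTTCCCGC. TTTGGCGC stood in 0% of called higher, 1.03% of called lower and 0.65% of measured genes. For TTTCCCGC the shares were 1.20%, 0% and 1.42%, so both motifs were rare in all sets.

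Among metabolic genes, 4 of 25 cholesterol and fatty acid synthesis genes were called lower and none higher, at a median of -0.19. Over all features 0.433% were called lower. Cyp51, lanosterol demethylase, fell by 0.52 ± 0.08 (adjusted p = 0.00369). It read -0.33, 0.36, 0.51 and -0.08 in controls and -1.12, -0.02, 0.13 and -0.60 in siG9a. Lanosterol synthase Lss fell by 0.46, the fatty acid elongase Elovl6 by 0.42 and the farnesyl diphosphate synthase Fdps by 0.35. Without day 1 replicate 1 only 1 of the list was called and without day 0 replicate 1 there were 6. Of all features 108 and 168 were called in these fits. The second probes of Lss and Elovl6 gave -0.06 and 0.02.

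The largest falls also held genes of varied function. Cav1, the coat protein of caveolae, fell by 0.68 ± 0.10, with pairs from -0.37 to -1.20. Tead2, a DNA-binding partner of YAP and TAZ, read 0.73, 0.46, 0.44 and 0.04 in controls and -0.55, -0.18, -0.04 and -0.24 in siG9a. It fell by 0.67 ± 0.11 (adjusted p = 0.00513), and none of 16 other TEAD, YAP/TAZ and target genes was called. Eva1c fell by 0.66 and the growth factor pleiotrophin (Ptn) by 0.64, although the second Ptn probe gave 0.07. Casp6, an executioner caspase, fell by 0.61, and its second probe gave -0.60. Pdlim2 and the Arp2/3 subunit Arpc1a fell by 0.57 and 0.58. All 3 other Pdlim2 probes had a negative mean, -0.39, -0.22 (mixed signs) and -0.29 (mixed signs). Those of Arpc1a gave -0.54, -0.22 and 0.08 (mixed signs). Thbs2, an antiangiogenic matrix glycoprotein, fell by 0.49, the called member of 49 extracellular matrix genes.

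H3K9 enzymes and readers other than the target differed little. Of 18 measured methyltransferases, partners and readers, Ehmt2 and Uhrf1 were called, both lower, and the median of the other 17 without Ehmt2 was -0.05. None of 13 H3K9 demethylases was called, and Phf2 and Kdm3a, with the smallest p, gave -0.13 and -0.11. Hdac7, a class IIa deacetylase, fell by 0.38, and stayed called when day 0 replicate 1 was left out but not when any other pair was. Of 23 cytosolic ribosomal protein genes none was called, yet 20 had a negative mean, with a median of -0.09. A negative mean was found in 16290 of all 31443 features. No gene was called among 12 myoblast, 14 fibroblast, 9 adipocyte and 10 neuronal and glial markers, 20 germline genes, 16 of the insulin-like growth factor system and 37 of the respiratory chain. None was called among 30 autophagy and 32 hypoxia and glycolysis genes either. Over all features 0.814% were called, so the absence of calls in lists of these sizes is near that share.

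Further probes of called genes were read from the same RNA. They are not independent of the choice, since the probe of largest SD over the 8 arrays had been kept for each gene and the further probes varied less. Called higher genes had 104 further probes in 59 genes, of which 87.5% were higher on average and 40.4% higher in all 4 pairs. Called lower genes had 92 in 57 genes, of which 79.3% were lower and 44.6% lower in all pairs. Over all 13838 further probes on the arrays 13.6% had the same sign in all pairs, counted in either direction rather than in 1. No share over all further probes was taken for the mean direction. Further probes of called genes had smaller sizes: a median of 0.18 for the higher and -0.17 for the lower genes, where the tested probes of those genes had 0.52 and -0.40.

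Some called genes were neighbours. Of 227 called genes with a position on GRCm38.p6, 53 lay in 23 runs of the same direction, within 500000 bases of each other. At 100000 bases there were 26 in 12 runs, 6 of them lower and 6 higher. The lower runs were 3 of H2ac genes on chromosome 13, H2ac20 with H2ac21 on 3, Tk1 with Birc5 on 11 and Trabd with Plxnb2 on 15. The higher runs were Gbp2 with Gbp2b on chromosome 3, Tceal5 with Tceal7 on X, Hsd11b1 with Lamb3 on 1, Alox5ap with Medag on 5, and Pvalb with Ncf4 and Nckap1l with Pde1b on 15. At the wider distance Ehmt2 lay within 500000 bases of the called lower genes Ddah2 and Tcf19 on chromosome 17. Several runs are gene families whose probes may share targets, and how many runs arise without a treatment was not tested.

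The effect of siG9a differed between the days in 1 feature (0.00318% of those tested), C1qtnf3. It read -3.03 and -4.69 in day 0 controls and -1.44 and -3.32 in day 0 siG9a arrays, a difference of 1.59 and 1.37. At day 1 it read 0.75 and -0.03 in controls and 1.09 and 0.28 in siG9a, a difference of 0.34 and 0.31. The day 1 difference was smaller by 1.15 (adjusted p = 0.0105), a call that neither 8-array fit made. For all other features a difference between days was not called, with 2658 at an unadjusted p under 0.05. The arrays of siG9a and control did not overlap at day 0 in 137 of the 256 called features (16.8% of all), at day 1 in 76 (13.5% of all) and at both days in 49 (3.19% of all).

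At the threshold, Srm, Tomm7 and Chaf1a were the last named genes inside, with differences of -0.44, -0.37 and -0.34. Ncaph, Bex2 and Mgst2 were the first outside, with -0.35, 0.37 and 0.38. The number of calls under other ways of fitting or scaling ranged from 0 to 634. None of the called genes among the 95 checked turned its sign, but most settings could not have turned it. Changes of block, day handling, moderation or feature set keep the mean difference of a probe. Leaving out pairs cannot turn a gene with the same sign in every pair. For such a gene only median centring, quantile normalization and the mean over a gene's probes could have done so.

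**Figure D5:**
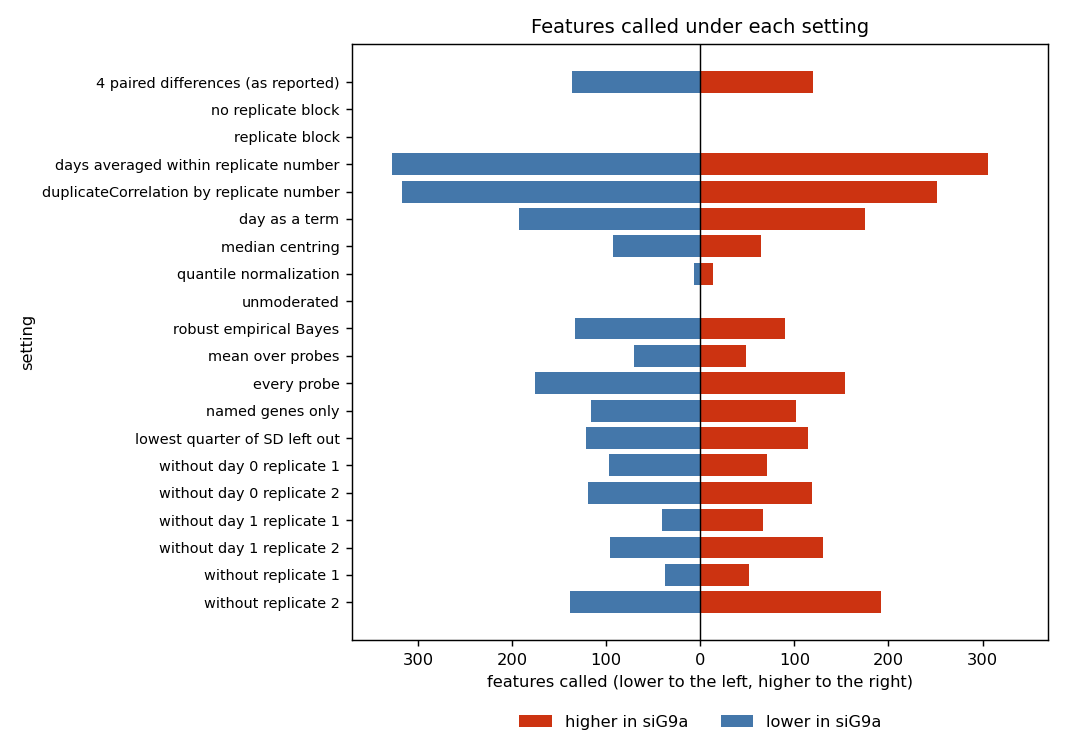
Number of features called lower (blue, left) and higher (red, right) in siG9a under the reported fit and 19 other settings. None are called in both 8-array fits and without moderation. Averaging the days of each replicate number first calls 634, with 1 residual degree of freedom and 1 variance for all features.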

How the data were processed

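Each of 8 myoblast samples gave total RNA for 1 Illumina WG-6 v2.0 array. The values used are log2 values as deposited by the authors in the series' processed table, 45281 probes, each relative to a level of its own. The log base is not stated and was taken as 2; p-values do not depend on it. How background, scaling and filters were handled is not given in the sources used here. Another table, of unnormalized values in 16 columns whose names match no sample, was left aside. Signal over background is therefore unknown, no dim probes were removed, and the number of arrays limits the precision.

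Of the probes, 35784 carried 1 gene symbol (28620 updated through the Entrez ID, 2637 through the accession, 4527 as in the platform table) and 9497 none. For each of 21946 genes the probe of largest SD over the 8 arrays was kept, and each unnamed probe stayed a feature of its own, for 31443 features in all. The 4 differences siG9a minus control within a day and replicate number were tested against 0 with limma 3.58.1 under R 4.3.3 (lmFit and eBayes without a trend, 3 residual and 16.9 prior degrees of freedom). P-values were adjusted by Benjamini-Hochberg over all features. The difference between days was tested on the same 4 values. Replicate numbers come from the sample titles. Deviations of same-numbered arrays from their group means were correlated across features. Between siG9a and control of the same day r was 0.786 and 0.865, so the numbers pair the arrays of a day. Between arrays of different days r was 0.613 to 0.671, so arrays of a number also deviated together across days. The labels call the replicates biological. The p-values measure the spread between the 4 differences, moderated towards the spread shared across features, and not the spread between the samples.

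The 36 gene lists (893 of 965 entries measured) and the members described were chosen with earlier results of these data known, and are described by counts and medians without a set test. Named genes were Ehmt2 and Ehmt1, the 15 largest rises and 15 largest falls of shared sign, the 5 smallest p each way, up to 4 called members of each list (with none called, the 2 of smallest p), 9 cell cycle and muscle genes, and 3 on each side of the threshold. Genes and families outside this rule were chosen after their values were seen, among them Alox5, Alox5ap, Il1rn, the H2ac, Gst and Gbp genes, further called list members and neighbours. Promoters (RefSeq, GRCm38.p6) were matched by symbol, for 15469 measured genes. Alternatives were other blocks, scalings, moderation, probe rules, filters and leaving out pairs. The paired fit was tested on simulated differences with independent pairs and features. The other steps were not tested in this way.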

Additional observations from a re-analysis of the deposited data

Results flagged for a closer look

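A pair of arrays lay far from the other 3 in 6 of the 95 named genes, by Dixon's criterion for 4 values, and 5 of these were the pair of day 0 replicate 1. Chance alone marks about 1 in 20 genes. In that pair Gldc, the glycine cleavage enzyme, differed by 1.60, where the other pairs gave 0.48 to 0.65. Fst differed by 0.998 there and by 0.36 to 0.47 elsewhere. Rb1 differed by 0.78 there and by 0.04 to 0.16 elsewhere. For H2ac15 it was the smallest fall, -0.36 against -0.66 to -0.69, and for Plac8 the smallest rise, 0.57 against 0.75 to 0.77. In the pair of day 1 replicate 1 Serpinb9g differed by 2.02, where the other pairs gave 0.45 to 0.59.

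The siG9a effect on C1qtnf3 was smaller at day 1 than at day 0 by -1.15 in the test of that difference. All 3 of its probes were higher in every pair.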

How the results depend on the processing

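The paired fit called 256 features, 120 higher and 136 lower. The fit of all 8 arrays with group means and no replicate block called 0 (148 at an unadjusted p under 0.05), and with the replicate block 0 (1540, smallest adjusted p 0.164); the 4 differences without moderation called 0 (1951, smallest adjusted p 0.257). In these fits Ehmt2 kept its difference of -1.50 with an adjusted p of 1, 0.164 and 0.714. Averaging the days within a replicate number called 634 (306 higher, 328 lower). That fit had 1 residual degree of freedom and infinite prior degrees of freedom, so 1 variance served all features. A random replicate block by duplicateCorrelation called 569 (252 and 317). Its estimated correlation within a replicate number was -0.27, and a negative value makes the SE of a mean smaller. Neither higher count shows that allowing for shared replicate numbers strengthens the calls. Median centring called 157 (64 and 93), quantile normalization 20 (13 and 7), and the mean over a gene's probes 120 (49 and 71). Leaving out 1 pair or both pairs of a replicate number called between 90 and 331 features, 52 to 192 of them higher and 38 to 139 lower. The lowest counts came without replicate 1 (90) and without day 1 replicate 1 (108), and 168 were called without day 0 replicate 1. Robust moderation called 223, day as a term 368, every probe 330, named genes alone 218, and 235 without the 25% of features with the lowest SD. All 157 features of median centring and all 20 of quantile normalization were among the 256, and 19 of the 20 stayed called with each pair left out. Ehmt2 kept its direction and call in all other settings. The difference between days was called for 1 feature, also after median centring, and for 0 in both 8-array fits. With 4 pairs from 2 replicate numbers, the calls depend on spread shared across features. The causes of these shifts were not tested.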
